A study of Homo sapiens with 6 samples.

Results

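The NRF2 antioxidant genes are a set of 9 genes chosen by symbol: NFE2L2, KEAP1, NQO1, HMOX1, GCLC, GCLM, TXNRD1, SRXN1 and AKR1C1. All 9 were found among the 21462 gene symbols of the count table. RNA was sequenced from A431 cells, a human epidermoid carcinoma keratinocyte line, in 3 control libraries (A431CT, genotype WT) and 3 libraries of cells in which DSG2 had been knocked out with CRISPR/Cas9 (Dsg2KO, genotype DSG2 KO). Both lines were grown in DMEM with fetal bovine serum and the labels give no treatment. DSG2 encodes Desmoglein-2, a cadherin of the desmosome, and the comparison asks which transcripts change when it is lost. Whether the edited line is a clone or a pool is not given in the sources used here, so loss of Dsg2 and any other difference acquired by the edited line cannot be told apart.

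NRF2, the product of NFE2L2, is a transcription factor that turns on genes for glutathione synthesis, thioredoxin reduction, NADPH supply and detoxification. In unstressed cells the adaptor KEAP1 binds NRF2 and hands it to a CUL3 ubiquitin ligase for degradation, so NRF2 is controlled mainly at the level of protein. Oxidants and electrophiles modify KEAP1, and NRF2 then accumulates, pairs with a small MAF protein and binds antioxidant response elements near its target genes. In keratinocytes the pathway is known for protection against ultraviolet light and reactive chemicals.

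The libraries held between 12845719 and 16255692 counts, and each of the 3 Dsg2KO libraries was deeper than each of the 3 A431CT libraries. Levels are given as CPM, counts scaled to library size with edgeR's TMM factors. DSG2 itself fell from 323 ± 6.08 CPM (SD, n = 3) to 51.9 ± 2.88 CPM, with log2 fold change -2.64. Keratinocyte markers were counted in all libraries, with summed levels from 11604 to 12249 CPM in A431CT cells and from 12584 to 12916 CPM in Dsg2KO cells, but KRT14 had at most 2 counts in any library. Past the adjusted p-value threshold given below, 4 of the 9 tested keratinocyte markers were higher and 3 were lower. Over all tested genes these shares were 14.3% and 15.3%. KRT6A was called lower at a log2 fold change of -1.03, where 3.03% of all tested genes were called lower. Fibroblast and melanocyte markers were scarce. Fibroblast markers summed to between 1.79 and 3.82 CPM over all libraries with COL1A2 at 0, and melanocyte markers to between 3.02 and 4.49 CPM with MLANA at 0. Endothelial markers summed to between 8.44 and 11.3 CPM in A431CT cells and between 15.1 and 15.7 CPM in Dsg2KO cells, with PECAM1 and CDH5 higher. Among immune markers CD3E was at 0, and the summed level, nearly all of it CD68, was from 239 to 243 CPM in A431CT cells and from 152 to 164 CPM in Dsg2KO cells. Of the 2 tested immune markers 1 was called lower, at -0.62, where 3.03% of all tested genes were. The other was at 0.66 without passing the adjusted p-value. The part of depth and of these markers in the results was not tested.

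Of the 9 genes, the mean CPM of TXNRD1 fell by 22.8% and that of NQO1 fell by 17.5% in Dsg2KO cells, and that of GCLM was higher by 7.22%. In bulk RNA, fewer cells that express a gene and less of its RNA per cell cannot be told apart. NFE2L2, KEAP1, GCLC, SRXN1 and HMOX1 differed by less than the test could separate from the spread between replicates. AKR1C1 was barely expressed. A call needed an adjusted p-value below 0.05 together with a log2 fold change of 0.5 or more in either direction (edgeR's quasi-likelihood test over the 12857 genes that passed the low-count filter, with Benjamini-Hochberg adjustment), and "rose" or "fell" is used below for any gene past the adjusted p-value. None of the 9 was called, where 6.03% of all tested genes were. By the adjusted p-value alone 3 of the 9 passed, 1 higher and 2 lower, where 29.6% of all tested genes passed, 14.3% higher and 15.3% lower. At an unadjusted p under 0.05, 4 of the 9 passed in edgeR, where 39.5% of all tested genes did, and DESeq2 also called 0 of them, with no adjusted p-value given for AKR1C1. For 4 of the 9 the A431CT and Dsg2KO libraries were fully apart, where this was so for 42.6% of all tested genes. Both counts of 4 include AKR1C1. As described below, AKR1C1 passed the low-count filter only through its A431CT libraries, so its place in these counts is a description. The median log2 fold change of the 9 was -0.09, against -0.0048 over all tested genes, and the median of its absolute size was 0.10, against 0.14. The shares of the 9 past the adjusted p-value and without overlap were near those of the whole table.

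**Figure D1:**
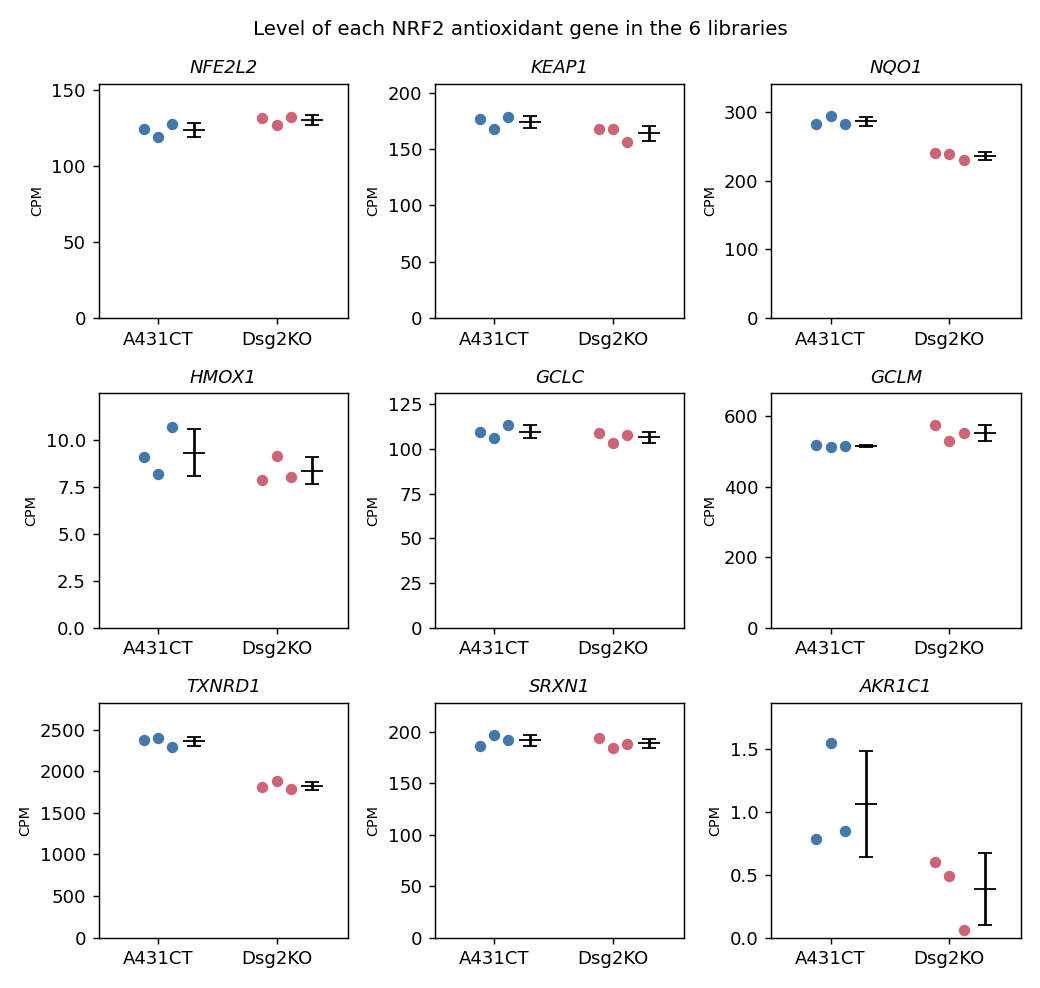
Each panel shows 1 gene, with its level in CPM on a vertical axis that starts at 0. Points are the 3 A431CT libraries (blue) and the 3 Dsg2KO libraries (red), and the black bars are the mean ± SD (n = 3). The points of the conditions are apart for NQO1, TXNRD1, GCLM and AKR1C1 and overlap for the other 5 genes.

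NFE2L2 lies on the minus strand of chromosome 2 from 177218667 to 177392756 (GRCh38, GENCODE 44). Its level was 124, 119 and 128 CPM in A431CT cells and 132, 127 and 132 CPM in Dsg2KO cells, and the conditions overlapped. The log2 fold change was 0.08 with an SE of 0.04 (adjusted p = 0.214, edgeR), with a 95% interval from -0.017 to 0.17. Over all its annotated exons, which add up to 14975 bases, NFE2L2 shares 3509 bases with HNRNPA3 on the opposite strand. HNRNPA3, the gene of an RNA-binding protein, fell with a log2 fold change of -0.18 (adjusted p = 0.00528, edgeR). Whether counting used strand is not given in the sources used here. KEAP1, on the minus strand of chromosome 19 from 10486125 to 10503558, was at 176, 167 and 178 CPM in A431CT cells and at 168, 168 and 156 CPM in Dsg2KO cells. Its conditions overlapped as well, with a log2 fold change of -0.09 and an SE of 0.04 (adjusted p = 0.159, edgeR) and a 95% interval from -0.18 to 0.0071.

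The number of NFE2L2 counts per KEAP1 count does not depend on how libraries are scaled. This ratio was 0.705, 0.710 and 0.719 for A431CT against 0.786, 0.756 and 0.850 for Dsg2KO, so all 3 Dsg2KO libraries were above all 3 A431CT libraries. An exact two-sided permutation test on its log2 gave p = 0.1, the smallest value that 3 libraries against 3 allow, and 0.125 after Benjamini-Hochberg adjustment over the 5 ratios computed. The 5 pairs of partner genes were chosen after the levels had been seen.

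Glutathione is made in a pathway whose slow step is carried out by glutamate-cysteine ligase, an enzyme of a catalytic subunit, GCLC, and a modifier subunit, GCLM. GCLC lies on chromosome 6 from 53497341 to 53616970 on the minus strand, and was at 110, 106 and 113 CPM in A431CT cells and 109, 103 and 108 CPM in Dsg2KO cells. The levels overlapped, with a log2 fold change of -0.04 and an SE of 0.04 (adjusted p = 0.535, edgeR; 95% interval from -0.14 to 0.054). GCLM lies on chromosome 1 from 93885199 to 93909456 on the minus strand. It was at 519, 512 and 514 CPM in A431CT cells and at 574, 530 and 553 CPM in Dsg2KO cells, with every Dsg2KO library above every A431CT library. GCLM rose with a log2 fold change of 0.10 and an SE of 0.04 (adjusted p = 0.0473, edgeR), higher in 3 of 3 Dsg2KO libraries. This was near the threshold: without A431CT replicate 1, 2 or 3 the adjusted p was 0.0961, 0.0819 or 0.0906, and without Dsg2KO replicate 1 or 3 it was 0.22 or 0.0891 (edgeR). Without Dsg2KO replicate 2 it was 0.0232, in a range of 0.0174 to 0.22 over all alternatives. The ratio of GCLM to GCLC counts was 4.74, 4.82 and 4.53 for A431CT against 5.28, 5.14 and 5.12 for Dsg2KO. Its conditions did not overlap (exact two-sided permutation p = 0.1, adjusted 0.125).

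TXNRD1 encodes the cytosolic thioredoxin reductase, a selenoprotein that passes electrons from NADPH to thioredoxin. It lies on the plus strand of chromosome 12 from 104215779 to 104350307. Its level was 2380, 2405 and 2298 CPM in A431CT cells and 1808, 1880 and 1782 CPM in Dsg2KO cells. Every Dsg2KO library was well below every A431CT library, and TXNRD1 fell with a log2 fold change of -0.37 and an SE of 0.03 (adjusted p = 3.34e-07, edgeR; 95% interval from -0.43 to -0.31). TXNRD1 held from 61.8% to 63.1% of the counts of the 9 genes in A431CT libraries and from 55.9% to 58.0% in Dsg2KO libraries. The summed level of the 9 genes was therefore lower, from 3719 to 3811 CPM in A431CT cells against 3158 to 3241 CPM in Dsg2KO cells. With TXNRD1 left out the sums overlapped, at 1406 to 1421 CPM and 1362 to 1425 CPM.

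SRXN1 encodes sulfiredoxin, which restores overoxidized peroxiredoxins. It lies on chromosome 20 from 646615 to 653200 on the minus strand, and its levels of 186, 197 and 192 CPM in A431CT cells and 194, 185 and 189 CPM in Dsg2KO cells overlapped. Its log2 fold change was -0.02 with an SE of 0.04 (adjusted p = 0.724, edgeR; 95% interval from -0.11 to 0.063). An overlapping annotated gene on the same strand shares 90.2% of the 150-base windows of the SRXN1 transcript and has no row under its identifier in the count table, so reads of both could have been counted on SRXN1.

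Promoter sequences from RefSeq (GRCh38.p14) were matched for 8 of the 9 genes, and the 250 bases before the start site were searched on both strands for the core of the antioxidant response element, TGACNNNGC. The core was present in GCLM and TXNRD1, which is 2 of the 8 (25%), and in 10.9% of all 35116 promoters searched. For the 8 genes the first promoter listed was used, while the 35116 may hold several promoters of a gene. Sequence farther away was not searched, so a gene without a match may still have the element elsewhere. An AP-1 site, TGANTCA, which can overlap the core, was in 0 of the 8 and in 6.57% of all promoters. Both promoters are shown because these are the genes with a match, 1 of them higher and the other lower in Dsg2KO cells, with the matched core in capitals. The TXNRD1 core reads TGACTTCGC from position -99 of the start site of this first listed promoter, on the gene's strand. The GCLM core reads TGACTAAGC on the opposite strand and covers positions starting at -34. A match is a description of the letters, and neither binding nor the start site in use in these cells was measured.
TXNRD1, chr12:104215529-104215778, plus strand: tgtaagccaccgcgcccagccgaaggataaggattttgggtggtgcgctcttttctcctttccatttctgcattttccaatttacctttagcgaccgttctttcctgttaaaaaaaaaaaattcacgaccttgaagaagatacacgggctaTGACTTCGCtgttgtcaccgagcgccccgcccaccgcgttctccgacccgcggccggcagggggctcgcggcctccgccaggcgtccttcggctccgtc
GCLM, chr1:93909431-93909680, minus strand: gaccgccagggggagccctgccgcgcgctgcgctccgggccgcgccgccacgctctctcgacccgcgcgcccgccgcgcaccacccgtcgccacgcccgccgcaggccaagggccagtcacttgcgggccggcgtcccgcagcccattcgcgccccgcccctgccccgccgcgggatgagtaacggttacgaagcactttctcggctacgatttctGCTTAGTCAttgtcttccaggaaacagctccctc

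NQO1 encodes a cytosolic quinone reductase that is widely used as a readout of NRF2 activity. It lies on the minus strand of chromosome 16 from 69706996 to 69726668. Its level was 283, 294 and 284 CPM in A431CT cells and 240, 240 and 230 CPM in Dsg2KO cells. All 3 Dsg2KO libraries lay below all 3 A431CT libraries, and NQO1 fell with a log2 fold change of -0.28 and an SE of 0.04 (adjusted p = 6.11e-05, edgeR; 95% interval from -0.36 to -0.20). HMOX1 encodes the inducible heme oxygenase, which breaks heme down to biliverdin, iron and carbon monoxide, and lies on the plus strand of chromosome 22 from 35380361 to 35394214. It was lowly expressed, at 9.12, 8.18 and 10.7 CPM in A431CT cells and 7.85, 9.17 and 8.03 CPM in Dsg2KO cells. The conditions overlapped, with a log2 fold change of -0.16 and an SE of 0.14 (adjusted p = 0.456, edgeR). It was -0.25 without A431CT replicate 2 and -0.048 without A431CT replicate 3. The 95% interval, from -0.46 to 0.15, was several times as wide as that of NQO1, as its raw counts lay between 111 and 150 per library.

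AKR1C1 encodes an aldo-keto reductase that reduces ketosteroids and lipid aldehydes, and lies on the plus strand of chromosome 10 from 4963253 to 4983283. It had 10, 21 and 11 counts in A431CT libraries and 9, 8 and 1 counts in Dsg2KO libraries. AKR1C1 passed the low-count filter only through its A431CT libraries, so its difference had to lie in this direction and is given as a description. Its log2 fold change was -1.47 with an SE of 0.56 (adjusted p = 0.0625, edgeR), and it was -0.96 (adjusted p = 0.212) without Dsg2KO replicate 3. The transcripts of AKR1C1 and its neighbor AKR1C2 were 97.25% identical over 3204 aligned bases, and 7.91% of the 150-base windows of AKR1C1 occurred unchanged in AKR1C2, so reads may have been split between them. AKR1C2 had 51, 69 and 52 counts in A431CT libraries and 19, 29 and 24 in Dsg2KO libraries, with a log2 fold change of -1.53 and an SE of 0.25 (adjusted p = 0.000334, edgeR). AKR1C3, with 10, 16 and 8 counts in A431CT libraries and 0, 2 and 4 in Dsg2KO libraries, did not pass the filter. Summed over the 3 paralogs the counts were 71, 106 and 71 in A431CT libraries and 28, 39 and 29 in Dsg2KO libraries. The conditions did not overlap, and the log2 fold change of the sum was -1.64 (standard error 0.23, adjusted p = 9.07e-05, edgeR).

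Levels of different genes were compared per kilobase of the GENCODE canonical transcript. In A431CT cells TXNRD1 was the highest at 612 ± 14.6 CPM per kilobase (SD, n = 3), followed by NQO1 at 114 ± 2.49, GCLM at 105 ± 0.779, SRXN1 at 75.9 ± 2.22, KEAP1 at 67.8 ± 2.23, NFE2L2 at 50.6 ± 1.86 and GCLC at 29.0 ± 0.949. HMOX1 was at 6.0 ± 0.817 and AKR1C1 at 0.162 ± 0.0645 CPM per kilobase. The libraries of each gene in this order did not overlap with those of the next. In Dsg2KO cells GCLM was above NQO1, at 113 ± 4.55 against 93.9 ± 2.21 CPM per kilobase, and the other genes kept their order. Per kilobase of all merged exons, where the annotated exons of NFE2L2 add up to 14975 bases, NFE2L2 at 8.26 ± 0.304 was below GCLC at 12.7 ± 0.417 in A431CT cells. On that scale NQO1 at 96.6 ± 2.11 and GCLM at 94.9 ± 0.701 overlapped.

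Each gene was also set beside the median log2 fold change of the tested genes within 5 Mb. For 90% of the tested genes with at least 10 such neighbors this median lay between -0.25 and 0.14. The 46 neighbors of TXNRD1 had a median of -0.19, and 40 of them were below 0. With this taken off, TXNRD1 was at -0.18, slightly smaller in size than the neighbor median itself. The 43 neighbors of GCLM had a median of 0.14, with 30 above 0, and GCLM was then at -0.035. NQO1 had 100 neighbors with a median of 0.0022 and stayed at -0.28. For the other 6 genes the neighbor median lay between -0.026 and 0.049. DNA was not measured, and the part of these neighbor values in the results was not tested.

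**Figure D2:**
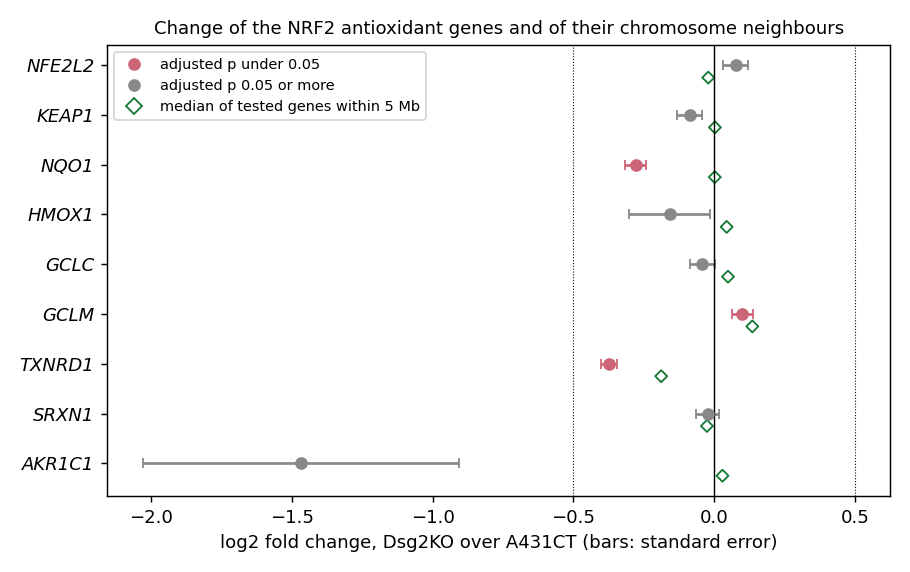
The horizontal axis is the log2 fold change of Dsg2KO over A431CT cells, with 1 row per gene. Circles are the genes with their standard error, red where the adjusted p was under 0.05, and green diamonds are the median of the tested genes within 5 Mb. NQO1 stands apart from its neighbors, TXNRD1 lies below a lowered neighborhood, and GCLM lies close to its own. Dotted lines mark a log2 fold change of 0.5 in either direction.

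The remaining genes of the pathway were taken from 8 lists of 95 genes, drawn from textbook roles but chosen with earlier results of these data known, so that the shares below are descriptions. Of these, 93 were in the count table and 82 passed the filter. Of the 82, 11 were called (13.4%, against 6.03% of all tested genes), 10 of them lower (background 3.03%) and 1 higher (background 2.99%). By the adjusted p-value alone 37 passed (45.1%, against 29.6%), 27 lower and 10 higher. The median log2 fold change of the 82 was -0.12. The counts per list below are descriptions of few genes each. They are to be read beside the shares of all tested genes, 6.03% called and 29.6% past the adjusted p-value, 15.3% lower and 14.3% higher. Many of these genes are abundant, and no comparison with genes of like abundance was made.

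Among the 14 regulators none was called in edgeR or DESeq2, where 6 passed the adjusted p-value, 3 in each direction. MAFK, which encodes a small MAF partner of NRF2, fell from 82.5 ± 1.28 to 68.2 ± 2.10 CPM (SD, n = 3), with log2 fold change -0.28 (adjusted p = 0.000533, edgeR). Of the other small MAF genes, MAFF rose with log2 fold change 0.27 (adjusted p = 0.0265, edgeR, and up to 0.104 over the alternatives), and MAFG was at -0.10 (adjusted p = 0.268, edgeR). BACH1, which encodes a repressor that competes for the same elements, rose from 38.3 ± 3.21 to 48.8 ± 1.37 CPM, with log2 fold change 0.35 (adjusted p = 0.00119, edgeR). The 31 tested neighbors of BACH1 on chromosome 21 had a median of 0.37, and with it taken off BACH1 was at -0.022.

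Of the 12 tested genes of glutathione synthesis and recycling, 2 were called, both lower, and 5 passed the adjusted p-value, 4 of them lower. GLRX, which encodes a glutaredoxin, was at 203, 177 and 173 CPM in A431CT cells and 111, 104 and 126 CPM in Dsg2KO cells, a log2 fold change of -0.69 and an SE of 0.07 (adjusted p = 3.65e-06, edgeR). SLC7A11, the cystine importer that feeds glutathione synthesis, was at 171, 172 and 187 CPM in A431CT cells and 123, 119 and 129 CPM in Dsg2KO cells. It fell with a log2 fold change of -0.51 and an SE of 0.05 (adjusted p = 1.66e-06, edgeR), and was at -0.47 and -0.48, under the fold change minimum, without A431CT replicate 3 or Dsg2KO replicate 2. Its heavy chain partner SLC3A2 had a log2 fold change of -0.02 (adjusted p = 0.739, edgeR). The ratio of SLC7A11 to SLC3A2 counts was 0.274, 0.280 and 0.300 for A431CT against 0.206, 0.190 and 0.211 for Dsg2KO, without overlap (exact two-sided permutation p = 0.1, adjusted 0.125).

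Of the 13 tested thioredoxin and peroxiredoxin genes 1 was called, and 7 passed the adjusted p-value, 5 of them lower. PRDX1, an abundant cytosolic peroxiredoxin, was at 676, 690 and 634 CPM in A431CT cells and 480, 455 and 445 CPM in Dsg2KO cells. The log2 difference was -0.54 with an SE of 0.04 (adjusted p = 2.42e-07, edgeR), and 80 of its 85 tested neighbors on chromosome 1 were below 0, with a median of -0.31. The ratio of TXNRD1 to TXN counts overlapped between the conditions, from 52.2 to 63.1 in A431CT cells and from 50.7 to 53.8 in Dsg2KO cells (exact two-sided permutation p = 0.3, also after adjustment).

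Of the 7 genes that supply NADPH 5 passed the adjusted p-value, all 5 lower, and 1 of these was called and is not reported here by name. PGD, which encodes an enzyme of the pentose phosphate pathway, had a log2 fold change of -0.33 (adjusted p = 6.87e-05, edgeR), and the median of its 66 neighbors was -0.36. PGLS, TALDO1 and ME1 fell with log2 fold changes of -0.23, -0.20 and -0.29, and their neighbor medians were -0.021, 0.013 and -0.18.

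Of the 24 tested detoxification enzymes and export pumps 5 were called, 4 lower and 1 higher, and 7 passed the adjusted p-value. The share of those 7 was near the 29.6% of all tested genes. The lower ones were AKR1C2, described above, AKR1B1, PTGR1 and CYP4F11, with log2 fold changes of -1.53, -0.51, -0.60 and -0.61. AKR1B1 encodes aldose reductase and fell from 72.0 ± 4.26 to 50.5 ± 2.40 CPM (SD, n = 3). Its log2 fold change was -0.48, -0.49 and -0.48 without A431CT replicate 2, A431CT replicate 3 or Dsg2KO replicate 2. PTGR1, which encodes a reductase of unsaturated aldehydes and ketones, fell from 33.2 ± 4.48 to 21.9 ± 1.12 CPM, and was at -0.48 without A431CT replicate 2. CYP4F11, a fatty acid hydroxylase gene, fell from 19.2 ± 0.568 to 12.5 ± 2.19 CPM. The higher one, GSTM3, a glutathione transferase gene, rose from 3.63 ± 1.19 to 7.0 ± 0.865 CPM, with log2 fold change 0.94 (adjusted p = 0.00496, edgeR). Its raw counts were low, between 32 and 117 per library. Of the 64 tested neighbors of GSTM3 on chromosome 1, 57 were above 0. Their median was 0.19, and with it taken off GSTM3 was at 0.75.

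Of the 6 tested genes of heme breakdown and iron storage 1 was called and 3 passed the adjusted p-value, 2 of them lower. FTH1, the heavy chain of the iron store ferritin, was at 2145, 2158 and 2195 CPM in A431CT cells and 1364, 1355 and 1483 CPM in Dsg2KO cells. The conditions were far apart, and FTH1 fell with a log2 fold change of -0.63 and an SE of 0.03 (adjusted p = 9.34e-09, edgeR). FTL, the light chain, fell from 1382 ± 25.9 to 1026 ± 18.4 CPM (SD, n = 3), with log2 fold change -0.43 (adjusted p = 9.45e-08, edgeR). The ratio of FTH1 to FTL counts was 1.58, 1.53 and 1.6 for A431CT against 1.36, 1.31 and 1.43 for Dsg2KO (exact two-sided permutation p = 0.1, adjusted 0.125). The neighbor medians were -0.016 for FTH1 and -0.012 for FTL. Ferritin genes have many processed pseudogenes, and how reads that fit several places were assigned is not given in the sources used here.

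Of the 4 other direct NRF2 targets 3 fell past the adjusted p-value and 1 was called. OSGIN1 did not pass, at -0.13 (adjusted p = 0.711, edgeR), and its sign turned over the alternatives, from -0.36 to 0.11. TRIM16L fell from 56.3 ± 1.77 to 38.4 ± 4.01 CPM (SD, n = 3), with log2 fold change -0.55 (adjusted p = 4.33e-05, edgeR), and was at -0.47 without Dsg2KO replicate 1. It is a close paralog of TRIM16, which fell by 0.20 on the log2 scale (adjusted p = 0.00907, edgeR), and reads may be split between them. Of the genes for removal of superoxide and peroxide, 2 were tested and 0 were called in edgeR or DESeq2. SOD1, the cytosolic superoxide dismutase gene on chromosome 21, rose from 131 ± 10.3 to 170 ± 3.57 CPM, with log2 fold change 0.37 (adjusted p = 7.12e-05, edgeR), and its 36 neighbors had a median of 0.39. CAT, the catalase gene, was at 46.3 ± 1.62 CPM in A431CT cells and 43.1 ± 1.51 CPM in Dsg2KO cells (adjusted p = 0.234, edgeR).

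**Figure D3:**
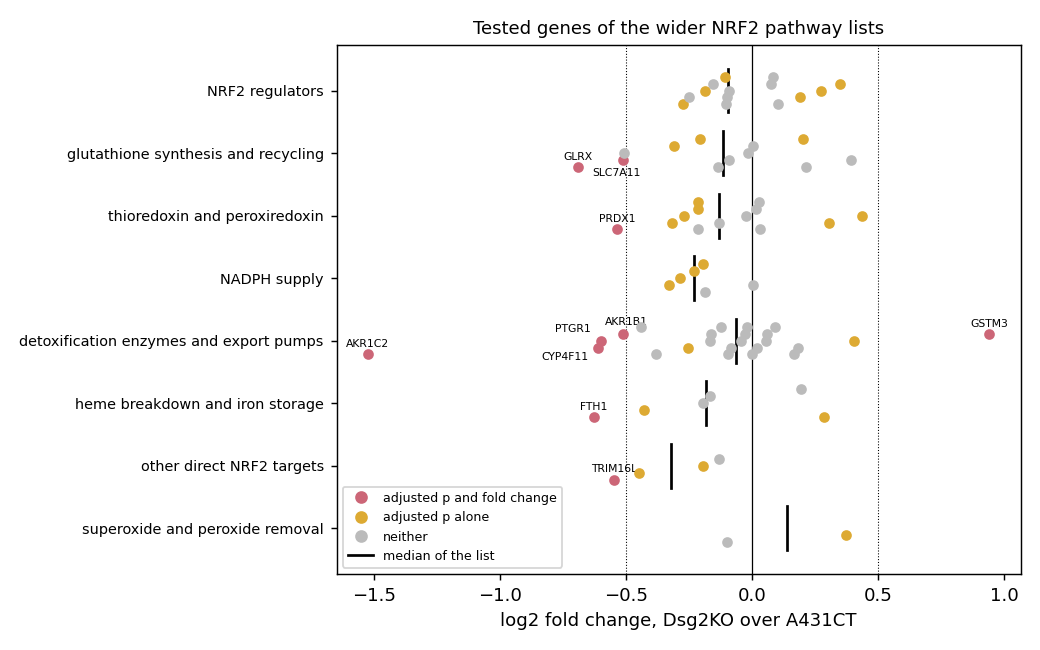
Each point is 1 tested gene of the 8 wider lists, with 1 NADPH supply gene not shown, placed by its log2 fold change of Dsg2KO over A431CT cells, and the black bars are the medians over all tested genes of each list. Red points passed both thresholds, yellow points the adjusted p-value alone and gray points neither. Of the 10 red points 9 lie to the left of 0, and GSTM3 lies to the right.

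The positions of these genes were examined in the same way. Of the 27 genes of the wider lists that fell, 26 could be placed on the genome, and 25 stayed below 0 after the neighbor median was taken off, the exception being PGD. Of the 10 that rose, 8 stayed above 0, and BACH1 and SOD1 did not. These genes were picked for their own change and most neighbor medians were small, so the counts are descriptions. The same count was not made for all tested genes. Of the 9 placed genes that were called lower, PRDX1 was the 1 gene whose neighbor median, at -0.31, was larger in size than what remained after taking it off, at -0.23. By the same measure the neighbor median was the larger for 6 of the 26 that fell, PRDX1 and PGD among them. It was also the larger for 3 of the 10 that rose, BACH1, SOD1 and CBR1. CBR1 had a log2 fold change of 0.40 and stayed above 0 at 0.026.

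**Figure D4:**
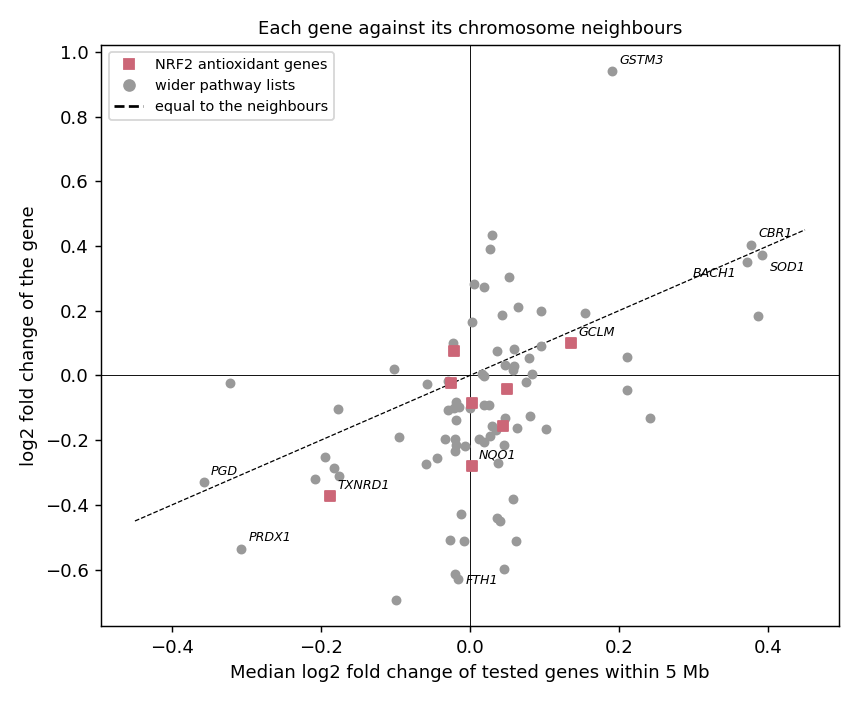
The vertical axis is the log2 fold change of each gene and the horizontal axis the median log2 fold change of the tested genes within 5 Mb. Red squares are the NRF2 antioxidant genes, gray circles the genes of the wider lists, and the dashed line marks equal values. FTH1 and NQO1 lie well below the line at a neighbor median near 0, while PGD, GCLM, BACH1, SOD1 and CBR1 lie near the line. AKR1C1 and AKR1C2, at -1.47 and -1.53, lie outside the plotted range, and genes that could not be placed or are not reported are left out.

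The genes with the profile most like that of NFE2L2 over the 6 libraries, by the root mean square difference of the mean-centered log2 CPM, were PLEKHB2, ARHGAP11A and LRRC58, at 0.0116, 0.0130 and 0.0146. For NQO1 they were UCKL1, YARS1 and GAPDH, at 0.0080, 0.0088 and 0.0110. Such profiles were common, since 766 of the 12856 other tested genes lay within 0.05 of NFE2L2 and 209 within 0.05 of NQO1.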

How the data were processed

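RNA-seq libraries of A431CT and Dsg2KO cells, 3 biological replicates each, were analysed. Per the study's methods, the authors removed adapters and low-quality paired-end sequence and mapped the rest to GRCh38 with CLC Genomics Workbench. They deposited whole-number counts per gene symbol, with no normalization. How these counts were made, the annotation and the strand setting are not given in the sources used here. Tests were run in edgeR 4.0.16 under R 4.3.3, using quasi-likelihood fits without covariates after TMM scaling. Genes were kept by filterByExpr at a count minimum of 10 and a total minimum of 15. Log2 CPM values used a prior count of 2. The study's thresholds for the adjusted p-value (0.05) and the log2 fold change (0.5) were kept, while its built-in CLC test was not used. DESeq2 1.42.0 was an alternative.

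Chi-square values per degree of freedom between replicates were 2.64 to 4.14, above counting error. The scripts were tested on simulated data, scored by the adjusted p-value alone without the fold change minimum. Simulated log2 changes of 0.5, 1 and 2 were recovered for 52 of 65, 62 of 67 and 67 of 67 genes. Of 12692 genes simulated without change 8 passed.

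GENCODE 44 (GRCh38) placed 19476 of the 21462 symbols. Shared 150-base windows and identities were computed from its canonical transcripts with Python 3.11.15 and Biopython 1.88. Promoters came from RefSeq.

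The members and lists were chosen with earlier results of these data known. The text names all members, DSG2, AKR1C2 and AKR1C3, and per list the 4 called genes with the smallest p-values, or the 2 smallest where none was called. The 3 nearest profiles to NFE2L2 and NQO1 were also named. HNRNPA3, SLC3A2, TXN, PGD, PGLS, TALDO1, ME1, GSTM3, FTL, TRIM16, CBR1, PIR, TXNRD3, MAFF, MAFG, OSGIN1 and the cell type markers were named after their values were seen. Some genes are not reported here by name.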

Additional observations from a re-analysis of the deposited data

How the results depend on the processing

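Without a fold change minimum 3802 genes passed over the whole table, 3 of them among the 9 NRF2 antioxidant genes and 37 in the wider lists, while raising the minimum to 1 left 250, 0 and 1. These follow from the minimum itself. Under edgeR's likelihood ratio test 1 of the 9 was called, AKR1C1, with a log2 fold change of -1.47 (adjusted p = 0.0113, edgeR). This call is a description, as AKR1C1 passed the filter only through its A431CT libraries. GCLM did not pass the adjusted p-value under that test, and the cause of these differences was not tested. RLE size factors, total counts only, other low-count filters, DESeq2 and each library left out called 0 of the 9, though AKR1C1 was not tested with at least 10 counts in every library and had no adjusted p-value in DESeq2. NQO1 and TXNRD1 passed the adjusted p-value in all 14 fits, with log2 fold changes from -0.29 to -0.26 and from -0.39 to -0.35. The sign of SRXN1 turned with total counts only, to 0.000157, and with the neighbor median taken off GCLM turned to -0.035 and SRXN1 to 0.0031. In the wider lists the number called was from 9 to 12 over the alternatives that kept the fold change minimum of 0.5. With total counts only SLC7A11 and AKR1B1 were not called. PIR and TXNRD3 were each called with 1 library left out. AKR1C3 was past both thresholds with 4 of the 6 libraries left out in turn and without the low-count filter. With a library left out, AKR1C3 passed the filter only through its A431CT libraries. Its difference then had to lie in this direction and is given as a description. Replicates were not treated as pairs, as the study's methods name no pairing. Same-numbered replicates had residual correlations between -0.0027 and 0.054. The value of 0.054, for replicate 3, was the largest between any A431CT and any Dsg2KO library. A replicate block gave 769 genes, 0 of the 9 and 11 in the wider lists, and it changed no call among these. Depth limits genes with few counts, such as AKR1C1 and AKR1C3.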
